A study of Mus musculus with 6 samples.

Results

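The heat shock chaperone genes described here are Cryab, Hspb1, Hspb8, Hspa1a, Hspa1b, Hspa8, Hspa5, Hsp90aa1, Hsph1 and Dnajb1. They were found by their symbols in each of the 3 deposited gene tables, and all 10 were present among the 22558 entries of each table. The genes were picked with the values of the embryonic stem cell (ESC) comparison known, Cryab being the most extreme of them there. The ESC values are therefore given as a description of 2 libraries and were not tested here.

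The study sequenced messenger RNA from 6 mouse pluripotent cell lines, 1 library per line, arranged as 3 pairs with a table for each pair. In the ESC pair, the H2A.X Cre KO line lacks the histone variant H2A.X by its label. It was set against the H2A.X Flox Flox line, whose gene keeps its recombination sites, and both lines came from embryos of 129Sv background. The other pairs were induced pluripotent stem cells (iPSC) of mixed 129Sv and C57 background, labelled 4N- or 4N+. One pair was made from peritoneal fibroblasts (PF, lines PF2 for 4N- and PF1 for 4N+) and one from tail tip fibroblasts (TTF, lines TTF2 for 4N- and TTF1 for 4N+). The names of the iPSC samples carry H2A.X, but the labels give these lines no genotype, and 4N is not spelled out. It was read, from knowledge outside the labels, as tetraploid complementation, in which a line is tried for its ability to build an entire embryo. All 6 cultures were at passage 25, and each label stands for 1 line per pair. Cells grew on feeder cells with LIF and were moved to gelatin, to be free of feeders, before lysis in Trizol.

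Effective depth, recovered from what 1 fragment is worth in each library, lay between 39059600 and 61181100 fragments, and 11027 to 11845 genes reached 1 FPKM (fragments per kilobase and library depth). The 4N- and 4N+ PF libraries had the same effective depth, 44389400 fragments. For that pair the value may thus be a shared scale and not each library's own depth. The H2A.X gene, H2afx, had 6.18 FPKM in the KO line and 34.9 FPKM in the Flox/Flox line. It was lower in the library labelled KO, and some of its transcript was still there. In the iPSC lines H2afx lay between 65.3 and 75.2 FPKM. All 6 markers of pluripotent cells reached 1 FPKM in every library.

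Heat shock proteins are chaperones that bind unfolded protein. Cells raise many of them when the heat shock factor HSF1 binds heat shock elements, which are inverted repeats of GAA, in front of the genes. Small heat shock proteins such as αB-crystallin (Cryab) hold unfolded proteins without using ATP, and Cryab is known for its abundance in the lens, heart and muscle. HSP70 proteins fold their clients in cycles of ATP hydrolysis that are started by J-domain proteins such as Dnajb1 and reset by nucleotide exchange factors such as Hsph1. HSP90 proteins act later, on clients such as kinases and steroid receptors. Hspa5 (BiP) is the HSP70 of the endoplasmic reticulum and a target of the unfolded protein response, a pathway separate from HSF1. Pluripotent cells are known for high levels of many constitutive chaperones.

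Promoter windows of 7 of the 10 genes were matched in RefSeq, and 5 are shown because these genes have large ESC ratios or, for Hspa5, belong to the separate pathway. Each runs 5′ to 3′ on the gene's strand, from 250 bases before the annotated start to 50 bases after it, on GRCm38.p6. Capitals mark heat shock elements in the first 4 and an endoplasmic reticulum stress element in Hspa5. Hspb1 is at chr5:135887669-135887968 on the plus strand and Hspb8 at chr5:116422815-116423114 on the minus strand. Hspa1a is at chr17:34972107-34972406 and the first of 2 Hsph1 windows at chr5:149636266-149636565, both on the minus strand. Hspa5 is at chr2:34771840-34772139 on the plus strand.
Hspb1: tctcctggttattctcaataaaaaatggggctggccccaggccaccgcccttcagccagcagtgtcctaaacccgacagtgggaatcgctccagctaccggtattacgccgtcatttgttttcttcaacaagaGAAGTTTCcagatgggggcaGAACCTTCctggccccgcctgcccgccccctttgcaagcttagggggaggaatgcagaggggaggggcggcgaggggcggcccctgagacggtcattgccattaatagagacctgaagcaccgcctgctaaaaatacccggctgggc
Hspb8: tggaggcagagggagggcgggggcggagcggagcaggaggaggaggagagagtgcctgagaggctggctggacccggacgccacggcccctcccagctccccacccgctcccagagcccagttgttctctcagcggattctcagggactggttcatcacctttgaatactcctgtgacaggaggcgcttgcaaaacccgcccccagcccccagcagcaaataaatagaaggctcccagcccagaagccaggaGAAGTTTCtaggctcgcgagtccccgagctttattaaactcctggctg
Hspa1a: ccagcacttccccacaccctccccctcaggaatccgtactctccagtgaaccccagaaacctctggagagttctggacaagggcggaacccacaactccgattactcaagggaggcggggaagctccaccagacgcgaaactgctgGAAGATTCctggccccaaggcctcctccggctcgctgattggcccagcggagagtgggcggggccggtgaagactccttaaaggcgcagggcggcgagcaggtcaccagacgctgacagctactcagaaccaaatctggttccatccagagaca
Hsph1: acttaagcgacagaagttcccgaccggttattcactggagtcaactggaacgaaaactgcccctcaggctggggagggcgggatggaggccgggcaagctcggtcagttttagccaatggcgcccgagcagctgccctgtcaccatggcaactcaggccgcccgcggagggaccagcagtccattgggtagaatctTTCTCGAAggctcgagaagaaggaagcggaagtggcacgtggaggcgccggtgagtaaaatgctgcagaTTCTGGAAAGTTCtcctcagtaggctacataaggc
Hspa5: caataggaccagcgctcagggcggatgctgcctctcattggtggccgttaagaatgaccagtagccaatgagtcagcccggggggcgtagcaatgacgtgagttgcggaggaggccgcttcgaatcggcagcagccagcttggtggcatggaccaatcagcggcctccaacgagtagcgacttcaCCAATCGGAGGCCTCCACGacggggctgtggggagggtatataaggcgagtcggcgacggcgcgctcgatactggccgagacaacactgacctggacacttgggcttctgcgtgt

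The windows differed in the element they held and in its place. Counting the annotated start base as 0, Hspb1 held GAANNTTC at -117 to -110 and again at -97 to -90, Hspb8 held it at 2 to 9, and Hspa1a and Hspa1b each held it at -104 to -97. Hsph1 held TTCNNGAA at -54 to -47 and the longer TTCTGGAAAGTTC at 15 to 27. The longer form overlaps both shorter ones, being TTCNNGAA followed by NNTTC, or on the other strand GAANNTTC followed by NNGAA. Hspa5 held the stress element, CCAAT and CCACG with 9 bases of any kind between them, at -65 to -47, and the windows of Dnajb1 held none of these motifs. Both strands were searched, and GAANNTTC and TTCNNGAA each read the same on both. Of 32851 windows of all genes, 7.86% held GAANNTTC, 8.52% held TTCNNGAA and 15.1% held either. The longer element was in 0.603% and the stress element in 0.119%. TATAAA, present in 13.6% of all windows, was in none of the members' windows. Hspa1a and Hspa1b windows had 296 of 300 bases in common and differed by C44T, T47C, T249G and C276T, with the Hspa1a base first and positions counted from 1 at the 5′ end. Cryab, Hspa8 and Hsp90aa1 had no entry.

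**Figure D1:**
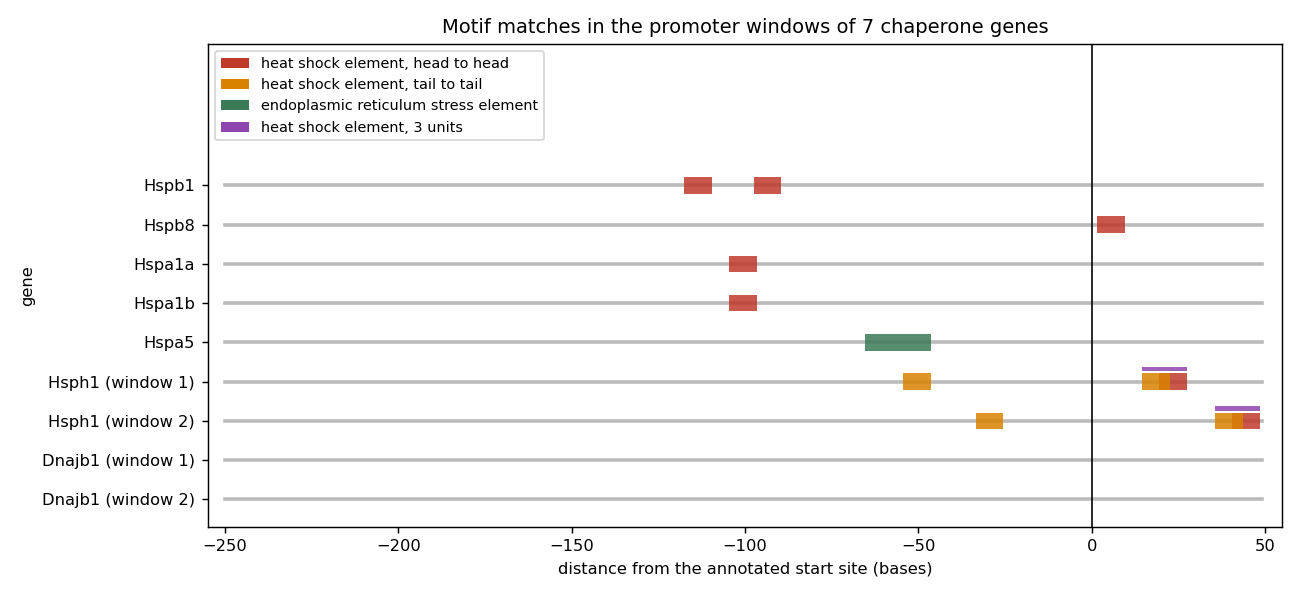
Motif matches in the promoter windows of 7 genes, with distance from the annotated start in bases on the x axis and 1 line per window. Coloured blocks are matches to the heat shock elements and the endoplasmic reticulum stress element; the Hsph1 windows hold the longer element and the Dnajb1 windows hold none.

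The first comparison asked how the chaperone genes stood in the KO line beside the Flox/Flox line. The small heat shock protein genes and the inducible HSP70 genes were higher in the KO library, while Hsph1, Hsp90aa1 and Hspa8 were lower. On the log2(FPKM + 1) scale, which understates the difference of low genes, 5 of 10 members were 2-fold or more above the Flox/Flox line, against 7.49% of the 12079 genes measured at 1 FPKM in either library. In the other direction 1 member was 2-fold or more below it, against 3.72% of genes. By any amount, 6 members were higher (48.3% of genes) and 4 lower (51.7% of genes). Since the members were picked from this comparison, nothing is read from those shares. Hspa1a and Hspa1b reached 1 FPKM only in the KO library. Genes expressed in both libraries at 5 FPKM or above had a median log2 ratio of -0.20, and no member's direction changed when ratios were centred on it. With 1 library per condition, the comparison has no replicate check, and fewer cells of a type cannot be told apart from less RNA per cell.

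Cryab, which encodes αB-crystallin, stood at 138.7 FPKM in the KO line and 1.96 FPKM in the Flox/Flox line, a ratio of 70.7. The PF iPSC had 1.08 FPKM (4N-) against 1.70 FPKM (4N+), and the TTF iPSC had 3.38 FPKM (4N-) against 2.88 FPKM (4N+). The KO library thus stood alone, and the other 5 lay within a range of 1.08 to 3.38 FPKM, with the limit that the tables may have been scaled separately. Cryab ranked 242 of 11845 genes at 1 FPKM in the KO library and 9743 of 11027 in the Flox/Flox library. Its log2 ratio of 5.56 was the 12th highest of the 12079 genes measured.

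Fragment numbers behind these values were recovered as the smallest transcript length that makes all 6 values whole. For Cryab they were 5315 in the KO line and 96 in the Flox/Flox line, which gives the ratio a conditional exact 95% interval of 57.8 to 87.4. Such intervals cover counting error only and not the difference between cultures. The length recovered for Cryab, 1185 bases, equals none of its annotated transcripts, the longest of which has 1117 bases. Its fragment numbers are thus the smallest that fit the values and were not checked by an annotated length. In the order of levels, the 4N- and 4N+ TTF lines had overlapping counting intervals (2.93 to 3.88 and 2.46 to 3.35 FPKM). The intervals of the Flox/Flox line and the 4N+ PF line overlapped as well (1.59 to 2.40 and 1.33 to 2.13 FPKM). The authors' deposited table called Cryab different in the ESC pair with a q-value of 1.85e-10, and it was the only one of the 10 members called there. That table called 210 of the 14584 genes with a single name that it tested (1.44%), 202 of them higher and 8 lower in the KO line, and its test compares 2 libraries. Cryab was picked with these values known, so nothing is read from its q-value.

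Cryab lies at chr9:50560863-50564738 on mm9, and 403 bases separate it from its neighbour Hspb2, a muscle-enriched small heat shock protein gene. Hspb2 stood at 8.001 FPKM in the KO line and 0.509 FPKM in the Flox/Flox line, 15.7-fold higher. Of the 50-base stretches in annotated Cryab transcripts, 14.4% also occur in Hspb2 transcripts. Strand use in counting is not stated, so reads of the neighbours cannot be fully told apart. Within a library, the ratio of Cryab to Hspb2 was 17.3 in the KO line and 3.86 in the Flox/Flox line, and it lay between 0.347 and 3.20 in the iPSC. The neighbours therefore did not keep 1 ratio across libraries.

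Hspb1, which encodes the widely expressed small heat shock protein HSP25, stood at 51.6 FPKM in the KO line and 14.9 FPKM in the Flox/Flox line. The iPSC values were 29.7 FPKM (4N-) against 33.7 FPKM (4N+) in the PF pair and 42.9 FPKM (4N-) against 37.4 FPKM (4N+) in the TTF pair. The ESC values thus bracketed all 4 iPSC values, with the Flox/Flox line the lowest of the 6 libraries. The ESC ratio was 3.47, with a counting interval of 3.13 to 3.84 from 1410 and 519 fragments, and the log2 ratio was 1.73. Of the 50-base stretches of Hspb1 transcripts, 48.8% are shared with Hsp25-ps1, so its value carries that doubt.

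Hspb8 encodes a small heat shock protein that works with the co-chaperone BAG3 in clearing damaged protein. It stood at 33.6 FPKM in the KO line and 11.4 FPKM in the Flox/Flox line, a ratio of 2.95 with a counting interval of 2.73 to 3.19. The PF lines were at 18.5 FPKM (4N-) against 17.4 FPKM (4N+), and the TTF lines at 10.6 FPKM (4N-) against 13.4 FPKM (4N+). The KO line was again the highest of the 6 libraries, and the Flox/Flox line lay between the TTF values. Bag3 was also higher in the ESC pair, at 7.86 FPKM in the KO line and 2.97 FPKM in the Flox/Flox line, so that the ratio of Hspb8 to Bag3 was 4.28 in the KO line and 3.84 in the Flox/Flox line. In the iPSC that ratio was 5.53 (4N-) against 3.47 (4N+) in the PF pair and 1.86 (4N-) against 2.12 (4N+) in the TTF pair. The 4N- PF line was thus above both ESC lines.

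Together the small heat shock protein genes Cryab, Hspb1, Hspb2, Hspb6 and Hspb8 summed to 234.3 FPKM in the KO line and 30.1 FPKM in the Flox/Flox line. Without Cryab the sums were 95.6 FPKM in the KO line and 28.1 FPKM in the Flox/Flox line. The iPSC sums with Cryab lay between 54.1 and 59.4 FPKM. Cryab was the most abundant of these genes in the KO library, at 2.69 times the FPKM of Hspb1, and was at 0.132 times Hspb1 in the Flox/Flox line and 0.0364 to 0.0788 times Hspb1 in the iPSC. Of the listed small heat shock proteins other than the members, 2 of 6 were measured, Hspb2 and Hspb6. Hspb6, a small heat shock protein of muscle, stood at 2.35 FPKM in the KO line and 1.32 FPKM in the Flox/Flox line.

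**Figure D2:**
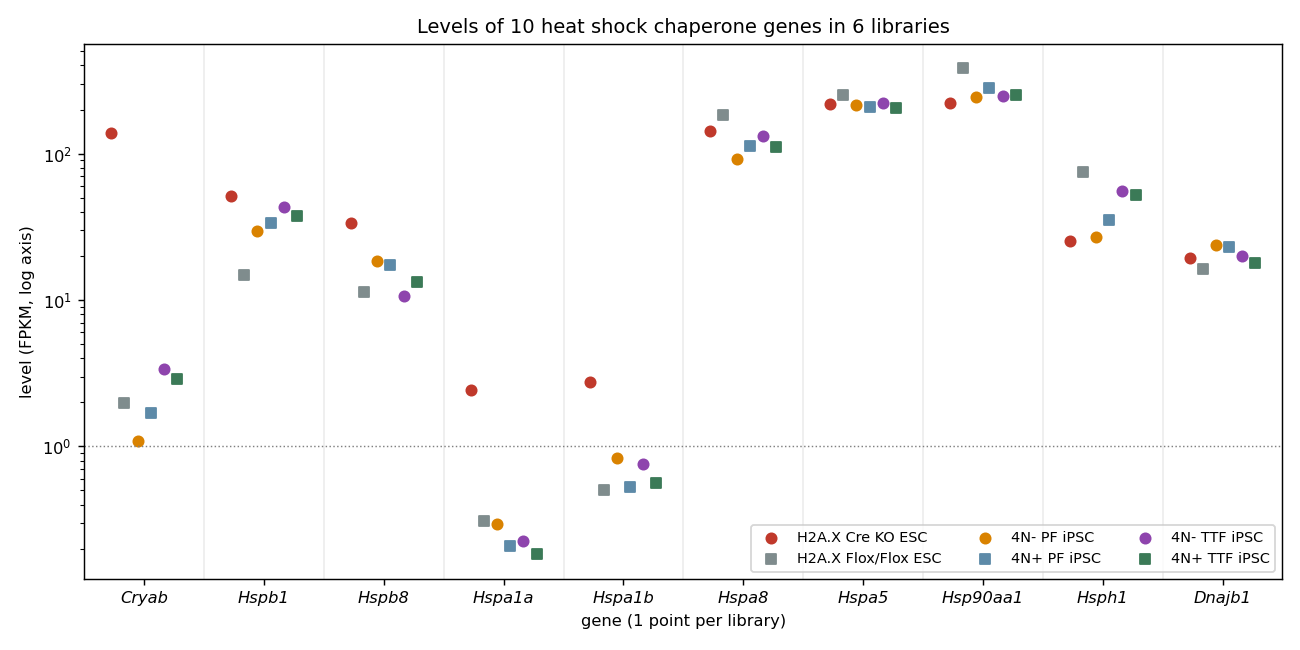
Levels in FPKM on a log axis, 1 point per library for each of the 10 genes, with circles for KO and 4N- lines and squares for Flox/Flox and 4N+ lines and a dotted line at 1 FPKM. Cryab stands at 138.7 FPKM in the KO line and between 1.08 and 3.38 FPKM in the other 5 libraries, while Hspa5 stays between 205.3 and 253.2 FPKM in all 6.

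Hspa1a and Hspa1b, the stress-inducible HSP70 genes, were at low levels throughout. Hspa1a stood at 2.42 FPKM in the KO line and 0.309 FPKM in the Flox/Flox line. In the iPSC it was at 0.295 FPKM (4N-) against 0.208 FPKM (4N+) in the PF pair and 0.227 FPKM (4N-) against 0.182 FPKM (4N+) in the TTF pair. The KO library held 245 Hspa1a fragments and every other library 24 to 40. Hspa1b stood at 2.73 FPKM in the KO line and 0.500 FPKM in the Flox/Flox line, and its iPSC values were 0.839 FPKM (4N-) against 0.527 FPKM (4N+) in the PF pair and 0.753 FPKM (4N-) against 0.558 FPKM (4N+) in the TTF pair. For both genes the KO line was above every other library.

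The ESC ratio was 7.82 for Hspa1a (counting interval 5.58 to 11.2) and 5.46 for Hspa1b (4.15 to 7.27), while on the log2(FPKM + 1) scale they were 1.38 and 1.31. The genes share 58.8% and 62.3% of their 50-base stretches with each other, counted from Hspa1a and from Hspa1b transcripts in turn, so reads may have been split between them. Their sum was 5.15 FPKM in the KO line and 0.810 FPKM in the Flox/Flox line. Against the constitutive Hspa8, the sum was 3.63% in the KO line and 0.439% in the Flox/Flox line, with 0.655% to 1.23% in the iPSC. Even in the KO library the inducible genes were thus a small part beside Hspa8.

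Hspa8, the constitutive HSP70 of the cytosol, was at 141.7 FPKM in the KO line and 184.5 FPKM in the Flox/Flox line, with a log2 ratio of -0.38. Its iPSC values were 92.0 FPKM (4N-) against 112.4 FPKM (4N+) in the PF pair and 132.5 FPKM (4N-) against 110.3 FPKM (4N+) in the TTF pair. The Flox/Flox line was the highest library. Of its 50-base stretches, 68.8% occur in other genes, mostly Gm15459, so the value carries that doubt. Dnajb1, the J-domain partner that hands clients to HSP70, was at 19.4 FPKM in the KO line and 16.3 FPKM in the Flox/Flox line, a ratio of 1.19 with a counting interval of 1.11 to 1.28. Its iPSC values were 23.7 FPKM (4N-) against 22.9 FPKM (4N+) in the PF pair and 19.8 FPKM (4N-) against 17.8 FPKM (4N+) in the TTF pair, so that all 6 libraries lay within a 1.46-fold range.

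Hsph1, the HSP110 nucleotide exchange factor that resets HSP70, was the member with the largest difference downward. It stood at 25.2 FPKM in the KO line and 75.4 FPKM in the Flox/Flox line, 2.99-fold lower, with a log2 ratio of -1.54. The iPSC values were 26.9 FPKM (4N-) against 34.9 FPKM (4N+) in the PF pair and 55.5 FPKM (4N-) against 52.5 FPKM (4N+) in the TTF pair. The KO line was the lowest library and the 4N- PF line was next to it. The ratio of Hsph1 to Hspa8 was 0.178 in the KO line and 0.409 in the Flox/Flox line, with 0.292 to 0.476 in the iPSC. Only 0.745% of the measured genes had a lower ESC ratio than Hsph1.

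Hsp90aa1, the stress-inducible cytosolic HSP90 gene, stood at 220.4 FPKM in the KO line and 382.7 FPKM in the Flox/Flox line, with a log2 ratio of -0.79. The iPSC values were 243.7 FPKM (4N-) against 281.5 FPKM (4N+) in the PF pair and 247.3 FPKM (4N-) against 251.8 FPKM (4N+) in the TTF pair. The KO line was the lowest library and the Flox/Flox line the highest. About as many of its 50-base stretches are shared with other genes (50.1%) as for Hspb1. Hspa5, the endoplasmic reticulum HSP70, stood at 217.1 FPKM in the KO line and 253.2 FPKM in the Flox/Flox line, with a log2 ratio of -0.22, or -0.02 once centred. Its iPSC values were 214.3 FPKM (4N-) against 209.6 FPKM (4N+) in the PF pair and 222.6 FPKM (4N-) against 205.3 FPKM (4N+) in the TTF pair, the narrowest range of the 10 members. The 6 libraries lay within a 1.23-fold range for Hspa5, while Cryab varied by 128.5-fold from lowest to highest.

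**Figure D3:**
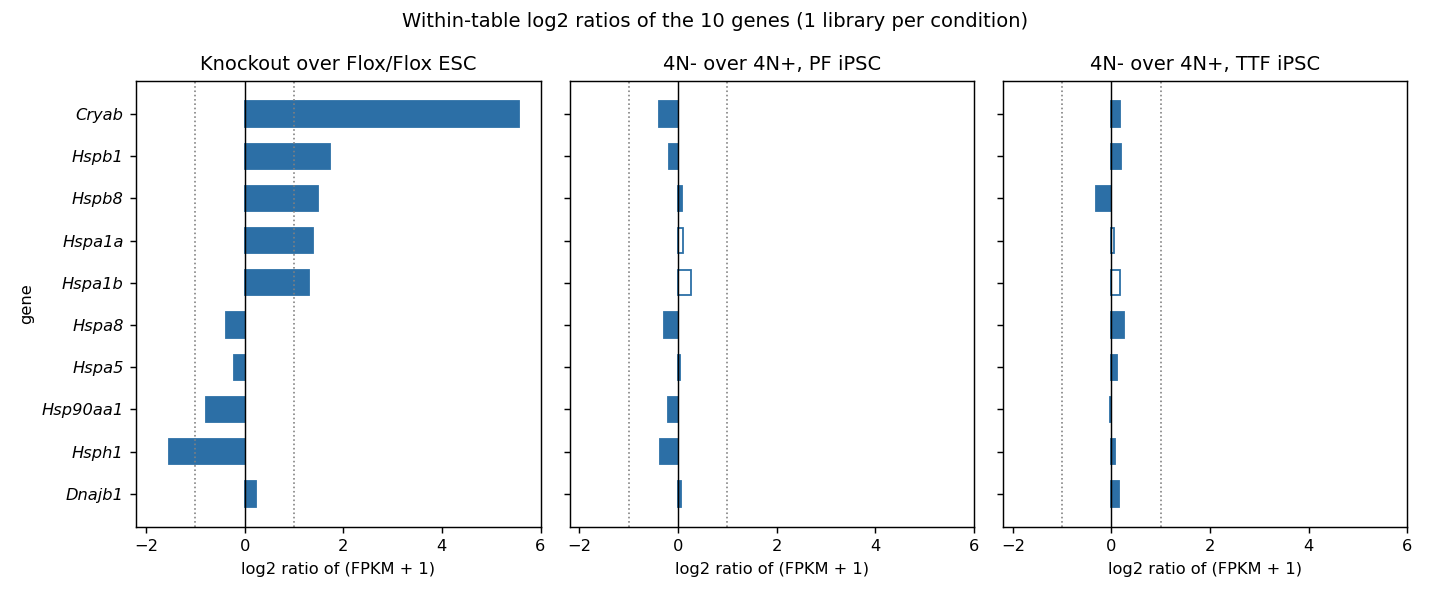
Bars give the log2 ratio of FPKM + 1 for each gene, KO over Flox/Flox ESC on the left and 4N- over 4N+ in the PF and TTF iPSC pairs, each bar being 1 library against 1; dotted lines mark 2-fold and open bars mark genes under 1 FPKM in both libraries. Cryab reaches 5.56 in the ESC pair, and every bar of the iPSC pairs stays between -0.38 and 0.27.

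Other chaperone genes were read from 8 lists, which hold 82 genes apart from the members. In the ESC pair 75 were measured, 30 of them higher in the KO line and 45 lower, with 4 past 2-fold upward and 5 past 2-fold downward, beside 7.49% and 3.72% of all measured genes. By any amount, 48.3% of all measured genes were higher and 51.7% lower. After centring, 6 were past 2-fold upward and 1 downward. Their median log2 ratio was -0.18, against -0.03 for all measured genes. Once centred, it was 0.03, against 0.17 for all measured genes. The direction of the 8 lists was mixed. The lists were drawn up with earlier results of these data known, so their counts are descriptions.

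Every chaperonin gene, which builds the folding chamber of the cytosol or mitochondrion, was lower in the KO line: 10 of 10, with log2 ratios of -1.69 to -0.53 and a median of -0.73 (-0.52 after centring). Of all measured genes, 51.7% were lower. Hspd1, the mitochondrial HSP60 gene, was at 47.5 FPKM in the KO line and 155.5 FPKM in the Flox/Flox line. Cct6a, a subunit of the cytosolic chaperonin, was at 208.9 FPKM in the KO line and 447.5 FPKM in the Flox/Flox line. The 8 cytosolic subunits summed to 1691 FPKM in the KO line and 2818 FPKM in the Flox/Flox line, and to 2268 to 2842 FPKM in the iPSC. The KO library was the lowest of the 6.

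Both listed HSP90 genes were lower in the KO line, with Hsp90ab1, the constitutive form, at 974.0 FPKM in the KO line and 1788 FPKM in the Flox/Flox line. The cytosolic co-chaperones had 14 of 19 lower, against 51.7% of all measured genes, and a median of -0.51. They included Ahsa1, an activator of HSP90, at 88.8 FPKM in the KO line and 180.7 FPKM in the Flox/Flox line, and the cyclophilin Ppid, at 39.9 FPKM in the KO line and 91.2 FPKM in the Flox/Flox line. The same list held 2 genes more than 2-fold higher in the KO library, Bag3 (2.64-fold) and Serpinh1 (2.83-fold). Serpinh1, although placed in this list, encodes HSP47, a collagen chaperone that works in the endoplasmic reticulum and not the cytosol. It was at 45.3 FPKM in the KO line and 15.996 FPKM in the Flox/Flox line. The genes of this list thus differed in both directions, with Bag3 the only cytosolic one past 2-fold upward.

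The remaining lists were level or mixed, beside 48.3% of all measured genes higher and 51.7% lower. HSP70 and HSP110 genes other than members had 3 of 7 higher. Their median of -0.19 became 0.01 after centring, against 0.17 for all measured genes. The highest of this list by mean level was Hspa9, the mitochondrial HSP70 gene. It was at 180.3 FPKM in the KO line and 297.1 FPKM in the Flox/Flox line. J-domain genes had 8 of 13 higher and a median of 0.13. Dnajb5 was at 9.49 FPKM in the KO line and 4.04 FPKM in the Flox/Flox line, and Dnajc2, a ribosome-associated factor, was at 31.7 FPKM in the KO line and 67.9 FPKM in the Flox/Flox line. Endoplasmic reticulum chaperones had 9 of 18 higher, none past 2-fold. Their median of -0.02 became 0.19 after centring, beside the 0.17 of all measured genes. Hsp90b1, the HSP90 of that compartment, was at 288.3 FPKM in the KO line and 443.8 FPKM in the Flox/Flox line. The heat shock factor list, which also holds Hsbp1, a negative regulator of HSF1 and not a factor, had 3 of 4 higher. Hsbp1 led it by level, at 55.01 FPKM in the KO line and 40.5 FPKM in the Flox/Flox line. The lower gene was Hsf2, at 15.3 FPKM in the KO line and 26.9 FPKM in the Flox/Flox line, a log2 ratio of -0.77. Hsf1 itself was at 11.6 FPKM in the KO line and 9.30 FPKM in the Flox/Flox line, a level that says nothing of its activity.

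**Figure D4:**
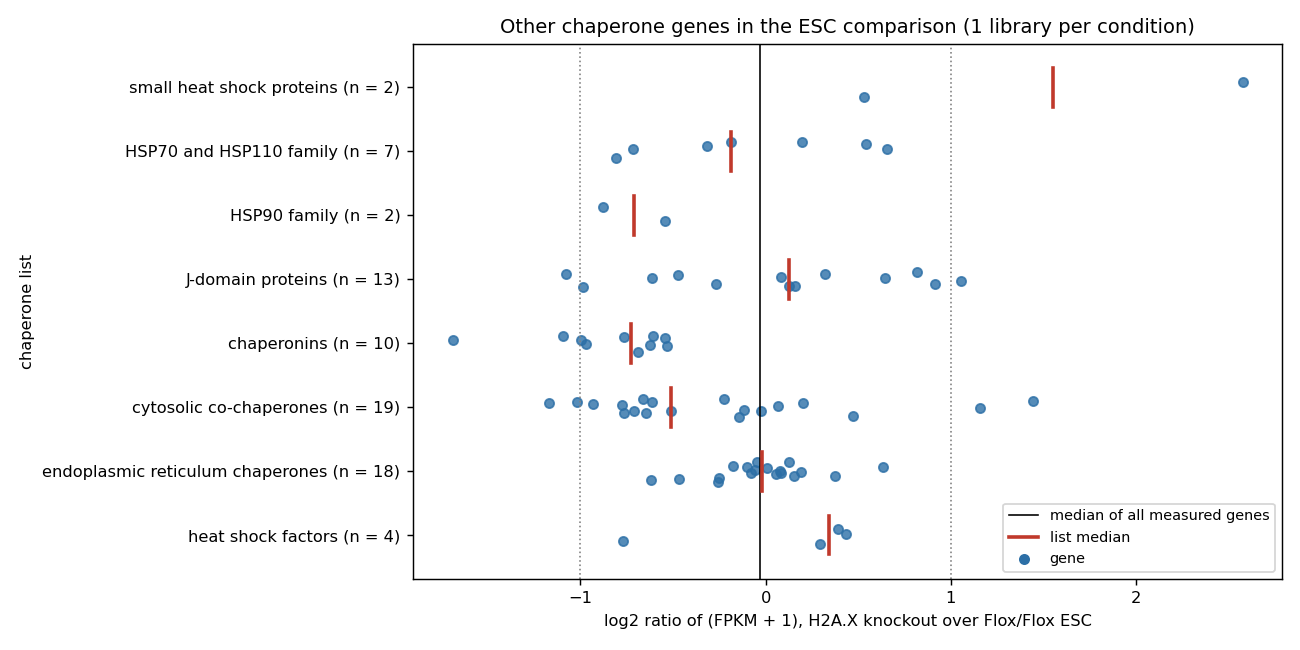
Log2 ratios of FPKM + 1, KO over Flox/Flox line, for the measured genes of 8 chaperone lists that leave out the members, with a red bar for each list's median, a black line for the median of all measured genes and dotted lines at 2-fold. All 10 chaperonin genes lie left of the black line, and the endoplasmic reticulum chaperones lie around it.

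**Figure D5:**
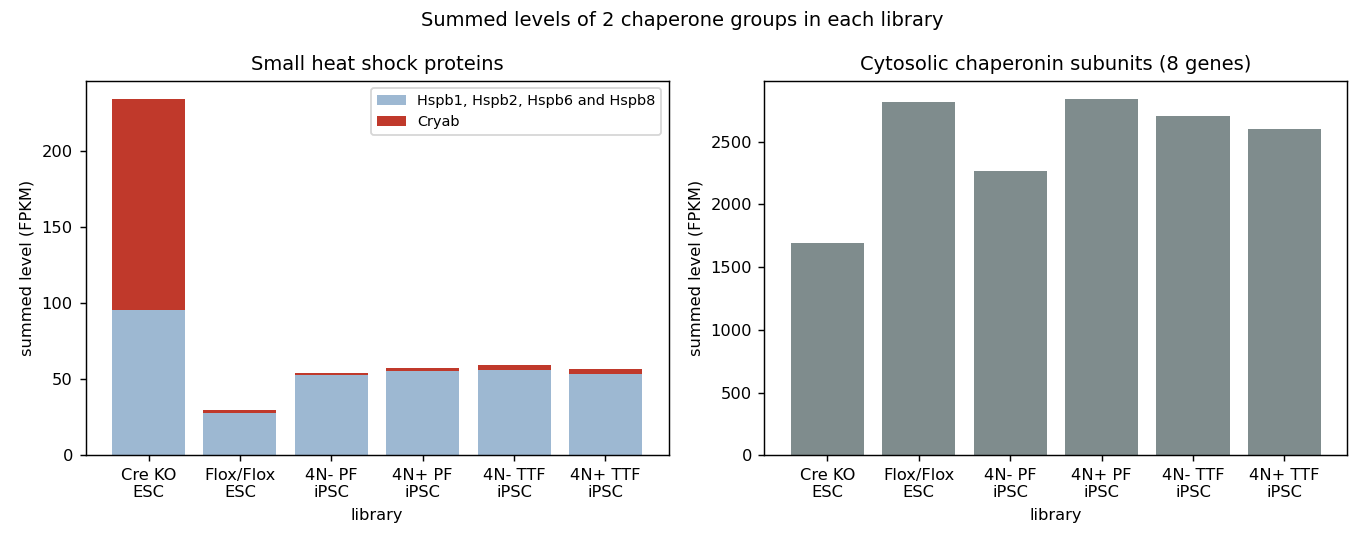
Summed FPKM in each of the 6 libraries, at left for the small heat shock protein genes with Cryab in red and at right for the 8 cytosolic chaperonin subunits, 1 library per bar. The small heat shock sum is 234.3 FPKM in the KO line and 30.1 FPKM in the Flox/Flox line, and the chaperonin sum is 1691 FPKM in the KO line and 2818 FPKM in the Flox/Flox line.

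Markers of other cell types differed in the same ESC pair. The 8 trophoblast markers summed to 891 FPKM in the KO line and 36.7 FPKM in the Flox/Flox line, with 6 of 8 at 1 FPKM in the KO library and 3 of 8 in the Flox/Flox library. In the iPSC that sum lay between 21.6 and 55.6 FPKM. Most of the KO sum came from 2 keratins, Krt18 (659.0 FPKM, 26.7 FPKM in the Flox/Flox line) and Krt8 (188.4 and 6.80 FPKM). In the same order, Hand1 was at 34.0 and 0.829 FPKM, Gata2 at 5.54 and 0.284 FPKM and Gata3 at 1.64 and 0.133 FPKM. Ascl2 was lower in the KO line (1.65 and 1.81 FPKM). Cdx2 (0.765 and 0.093 FPKM) and Elf5 (0.038 and 0.020 FPKM) were under 1 FPKM in both lines. The 6 macrophage markers summed to 57.9 FPKM in the KO line and 12.3 FPKM in the Flox/Flox line, with 3 of 6 at 1 FPKM in the KO library and 1 of 6 in the Flox/Flox library. Cd68 was at 41.6 FPKM in the KO line and 11.6 FPKM in the Flox/Flox line, and Csf1r was at 11.3 FPKM in the KO line and 0.131 FPKM in the Flox/Flox line. Cd74 was at 4.76 FPKM in the KO line and 0.555 FPKM in the Flox/Flox line. The other macrophage markers were near 0: Ptprc was at 0.041 FPKM in the KO line and 0.028 FPKM in the Flox/Flox line, Emr1 and Lyz2 were at 0.0084 and 0.090 FPKM in the KO line, and both were listed at 0 in the Flox/Flox line. Extraembryonic endoderm markers summed to 5.16 FPKM in the KO line and 2.11 FPKM in the Flox/Flox line. Fibroblast markers summed to 7.80 FPKM in the KO line and 2.20 FPKM in the Flox/Flox line, with Lum at 0 in both. In the iPSC these sums lay between 2.43 and 8.22 FPKM for endoderm and between 4.29 and 19.8 FPKM for fibroblasts. The 6 pluripotency markers summed to 388 FPKM in the KO line and 611 FPKM in the Flox/Flox line. The part of these cell types in the chaperone differences was not tested.

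Since Cryab is known from lens and muscle, 9 markers of muscle, heart and lens were read too. They summed to 9.86 FPKM in the KO line and 4.54 FPKM in the Flox/Flox line. In the iPSC that sum lay between 9.42 and 14.3 FPKM. In the ESC pair Des, an intermediate filament gene, was the only marker at 1 FPKM. It was at 7.60 FPKM in the KO line and 3.03 FPKM in the Flox/Flox line. Cryaa, the lens partner of Cryab, was at 0.158 FPKM in the KO line and 0.021 FPKM in the Flox/Flox line. The other 8 markers were thus each under 1 FPKM in both ESC libraries.

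The genes whose 3 within-table log2 ratios lay nearest to those of Cryab, by Euclidean distance among 8495 genes at 5 FPKM or more in a library, were 1600025M17Rik, Krt18, Lgals3, Krt8 and Krt7. Krt18 and Krt8, the keratin pair of simple epithelia, are themselves on the trophoblast list. Krt7, a further simple epithelial keratin, was at 83.1 FPKM in the KO line and 3.47 FPKM in the Flox/Flox line. Their distances to Cryab were 1.04 for 1600025M17Rik, 1.14 for Krt18, 1.21 for Lgals3, 1.26 for Krt8 and 1.35 for Krt7, and the ESC ratio supplied most of each squared distance. That ratio was known when Cryab was picked, so the ranking is a description. 1600025M17Rik reached 5 FPKM only in the KO line (27.4 FPKM), and its PF ratio of 0 came from 0 FPKM in both PF lines.

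The second comparison set 4N- against 4N+ iPSC within each parental cell type, values not used to pick the members. No member passed 2-fold in either pair, and the ratios of the 10 genes lay between -0.38 and 0.27. In the PF pair 0.578% of 11599 measured genes passed 2-fold upward in the 4N- line and 0.974% passed it downward, and in the TTF pair 0.185% and 0.564% of 11348. Of the 8 members measured, 5 were lower and 3 higher in the 4N- PF line, against 68.2% and 31.5% of all genes. In the 4N- TTF line 6 were higher and 2 lower, against 50.1% and 49.9% of all genes. With 8 genes, such counts are near the background.

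Within the PF pair, Cryab had a counting interval for its ratio of 0.431 to 0.928 from 47 and 74 fragments, with a log2 ratio of -0.38. In the TTF pair its ratio was 1.18 with an interval of 0.953 to 1.45, and the log2 ratio was 0.18. Hspb1 was at a ratio of 0.880 (0.804 to 0.962) in the PF pair and 1.15 (1.07 to 1.23) in the TTF pair. The pairs thus differed in sign for both genes, and nothing replicates a line within a pair. Genes at 5 FPKM or above in both PF libraries had a median log2 ratio of -0.17. Centred on that median, the PF log2 ratio was -0.01 for Hspb1 and -0.21 for Cryab. The counting intervals were not centred, so they do not allow for this shift. Hspb8 was at 1.06 (0.982 to 1.15) in the PF pair and 0.795 (0.732 to 0.863) in the TTF pair, and Hspa1b at 1.59 (1.14 to 2.23) in the PF pair and 1.35 (1.01 to 1.80) in the TTF pair. Hspa1b, under 1 FPKM in all 4 lines, was the only member resolved to fragments whose intervals lay above 1 in both pairs. The share of all genes with such intervals was not counted, so nothing is read from this. Hspa1b also shares 62.3% of its 50-base stretches with Hspa1a. Fibroblast markers summed to 6.77 FPKM in the 4N- PF line and 19.8 FPKM in the 4N+ PF line, and their part in these ratios was not tested.

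The 4 iPSC libraries were also fitted together with limma, with parental cells as a block. Of the 11978 genes tested, 14 were called at an adjusted p below 0.05 (0.117%), 5 higher and 9 lower in 4N-, and 443 had an unadjusted p below 0.05. None of the 8 members tested was called by limma, none had an unadjusted p below 0.05, and all had an adjusted p of 0.999. The 95% intervals of the log2 fold change ran from -0.49 to 0.29 for Cryab (estimate -0.10, SE 0.18), from -0.43 to 0.44 for Hspb1 (estimate 0.01, SE 0.20) and from -0.50 to 0.27 for Hspb8 (estimate -0.11, SE 0.17). They ran from -0.59 to 0.31 for Hsph1 (estimate -0.14, SE 0.20), and from -0.63 to 0.40 for Hsp90aa1 (estimate -0.12, SE 0.23). For Hspa8, Hspa5 and Dnajb1 the estimates were -0.01 (SE 0.23), 0.07 (SE 0.23) and 0.10 (SE 0.17). These intervals rest on a spread that limma pools across genes, with 1 residual degree of freedom from each gene. Without the filter on low values, the limma estimates were 0.08 for Hspa1a and 0.22 for Hspa1b, with an adjusted p of 0.939 each. Of the other chaperone genes 75 were tested and 0 called by limma; 1, Hspa4l, had an unadjusted p of 0.0461 (log2 fold change -0.35, adjusted p 0.999).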

How the data were processed

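Messenger RNA was measured in 6 libraries, 1 per culture. The authors deposited 3 tables of gene-level FPKM, 2 libraries each, with p-values and q-values of their own test, per the file headers. Reads passed through CASAVA and TopHat2 on mm9, per the submitters' processing notes. The sources used here do not give versions, annotation, strand use or the program behind the FPKM. FPKM was inferred from the values and the column layout. No column belonged to other samples (0).

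The 87 entries with several names were left out, leaving 22471 genes. Ratios were formed within a table as log2(FPKM + 1), and a gene was measured at 1 FPKM or more in at least 1 library of a table. Fragment numbers came from the value of 1 fragment in intronless receptor genes and from the smallest length that made a member's 6 values whole within 0.05, which succeeded for 6 members. That length equalled an annotated transcript for Hspb1 (903 bases) and for no other member resolved. Ratio intervals (95%) are conditional exact binomial ones and hold counting error alone. Shared 50-base stretches were counted in annotated transcripts. For the 4 iPSC libraries, limma 3.58.1 (R 4.3.3) gave a moderated test with a mean-variance trend, Benjamini-Hochberg adjustment over all genes and the parental cell type as a block. The block comes from the tables, which pair lines of 1 parental cell type. Deviations of the pairs had a correlation of 0.44 over 11978 genes, and with 2 pairs this is a single number. The labels do not say that paired lines came from the same animal. Other steps used Python 3.11.15 with pandas 2.3.3, numpy 2.4.6, scipy 1.17.1 and matplotlib 3.10.9.

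The members and gene lists were chosen with earlier results of these data known. Genes named beyond the members were those past 2-fold in any table, the most abundant gene of a list with none, and the 5 nearest to Cryab. Hsf1, Hsf2, Hspb6, the trophoblast and other markers and Hspa4l were also named, Hspb6, Hsf1, Hsf2 and Hspa4l after their values were seen. Alternatives changed the pseudocount, low-value filter, centring, small RNA genes, the block and the libraries.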

Additional observations from a re-analysis of the deposited data

Results flagged for a closer look

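For 5 of the 10 members the 4N- line stood above the 4N+ line in one iPSC pair and below it in the other. Each label had 1 line per pair. Of all measured genes, 31.5% were higher and 68.2% lower in the 4N- PF line. In the 4N- TTF line 50.1% were higher and 49.9% lower. The share of all genes with opposite signs was not counted, so nothing is read from the count of members. Cryab had a log2 ratio of -0.38 in the PF pair and 0.18 in the TTF pair. Hspb1 had -0.18 in the PF pair (-0.01 once centred) and 0.20 in the TTF pair. Hspa8 had -0.29 in the PF pair and 0.26 in the TTF pair. Hsph1 had -0.36 in the PF pair and 0.081 in the TTF pair. Hspb8 went the other way, with 0.082 in the PF pair and -0.31 in the TTF pair. These differences between the pairs were not tested.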

How the results depend on the processing

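In the ESC pair, 5 members were at least 2-fold higher, and 3 with a minimum of 5 FPKM, which leaves out Hspa1a and Hspa1b. Of the other chaperone genes, 4 passed 2-fold upward and 5 downward. These counts were 7 higher and 7 lower with a pseudocount of 0.1, and 6 higher and 1 lower after centring on the median. In the iPSC fit limma called 14 genes, 0 with no filter on low values, 67 with a minimum of 5 FPKM, 94 without small RNA genes and 1 to 17 with 1 library left out. With no replicate block it called 3, with parental pairing ignored. No member was called under any of these settings, with an adjusted p between 0.939 and 1. The Hspa8 estimate of -0.01 became 0.066 after centring.

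With 1 library left out, which drops the block and compares values across tables, the log2 fold change ranged from -0.64 to 0.44 for Cryab, from -0.25 to 0.27 for Hspb1, from -0.49 to 0.26 for Hspb8 and from -0.27 to 0.25 for Hspa8. It ranged from 0.05 to 0.10 for Hspa5, from -0.20 to -0.04 for Hsp90aa1, from -0.65 to 0.37 for Hsph1 and from -0.073 to 0.27 for Dnajb1. Of 205 values of single genes over all alternatives, 192 kept direction and side of the threshold and 13 changed direction, 12 of them with a library left out. Among the 173 values with every library kept, 1 changed direction. Many of these could not change, since the low-value filter and small RNA genes do not enter the ratio of a single gene. The limma estimates were fixed there as well, and also without the block. The tally is thus no measure of stability. The cause of the changes was not tested. The ESC pair and each iPSC pair have no second library per condition, so depth limits only counting error: Hspa1a rested on 24 to 40 fragments outside the KO ESC.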
